A study of Mus musculus with 6 samples.

Results

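Arc, Homer1, Syt4 and Grm2 are genes of the synapse, taken from a table of hippocampal gene expression after cerebral ischemia by their gene symbols. Each symbol had 1 row, so the set holds 4 of the 637 genes in the table. RNA was sequenced from the hippocampus of C57BL/6 mice, described as wild type and aged 56 days. One group of 3 samples had focal occlusion of the middle cerebral artery, which models stroke by stopping flow in a large brain artery, and the other group of 3 had a sham operation. Both groups are titled 2 h, but whether this counts the hours of occlusion or those since surgery is not told. The labels do not say whether samples came from separate animals or were pooled, nor which hemisphere was taken, so p-values rest on a spread between samples that may be technical.

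Excitatory synapses pass signals by glutamate, released from vesicles of the axon terminal and sensed by receptors on the spine of the next neuron. Arc and Homer1 act on the receiving, postsynaptic side, and their transcription is known to be switched on by strong synaptic activity. Arc drives the removal of AMPA-type glutamate receptors from the spine surface, and Homer1 is a scaffold that ties group I metabotropic glutamate receptors to the Shank scaffold and to calcium stores. Syt4, a member of the synaptotagmin family of vesicle proteins, is found on vesicles that carry neuropeptides and neurotrophins. Grm2 encodes a group II metabotropic glutamate receptor, which couples to inhibitory G proteins and lowers glutamate release from axon terminals, including those of dentate granule cells.

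The authors' deposited table gives for each gene 1 value per group, taken here to be a mean normalised read count. It also gives the log2 fold change and the raw and adjusted p-values of the authors' test. It holds no value per sample, so no standard deviation could be computed and it cannot be said whether the samples of both groups overlap. Library depths are unknown. Of the columns, M2 was taken to be ischemia and S2 to be sham, by the first letters of the labelled treatments, and each direction given here depends on this. The table holds only called genes: its highest adjusted p-value is 0.0499. All 637 deposited adjusted p-values equal the Benjamini-Hochberg values that 28319 tested genes would give, so 2.25% of the tested genes were called, 1.47% (415 genes) as higher and 0.784% (222 genes) as lower in ischemia. Because the 4 genes were picked from a list of called genes, the fact that each of them was called is no result about them. Genes were looked up by symbol, which 581 of the 637 rows have. A gene counted here as not listed or not called is one whose symbol is absent. It could be among the rows without a symbol or be named otherwise in the annotation, and its level is not known.

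The postsynaptic genes changed most. Arc averaged 77034 normalised reads in ischemia and 8162 in sham in the authors' deposited table, a log2 fold change of 3.24 (9.44-fold higher, adjusted p = 1.37e-13, the authors' test on 3 against 3 samples). Homer1 averaged 76077 normalised reads in ischemia and 7334 in sham in the authors' deposited table, a log2 fold change of 3.37 (10.4-fold higher, adjusted p = 0.00837). Syt4 and Grm2, grouped here as presynaptic, changed less and in opposite directions. Syt4 averaged 11425 normalised reads in ischemia and 5432 in sham in the authors' deposited table, a log2 fold change of 1.07 (2.10-fold higher, adjusted p = 0.00213). Grm2 averaged 1913 normalised reads in ischemia and 3144 in sham in the authors' deposited table, a log2 fold change of -0.72 (1.64-fold lower, adjusted p = 0.000242). The calls of Homer1 and Syt4 did not pass a Bonferroni correction, and Grm2 did not reach a log2 change of 1 in size. Between the members the log2 changes differed by 2.17 for Arc against Syt4 and by 2.30 for Homer1 against Syt4, but only by -0.14 for Arc against Homer1; with group means alone these differences could not be tested.

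**Figure D1:**
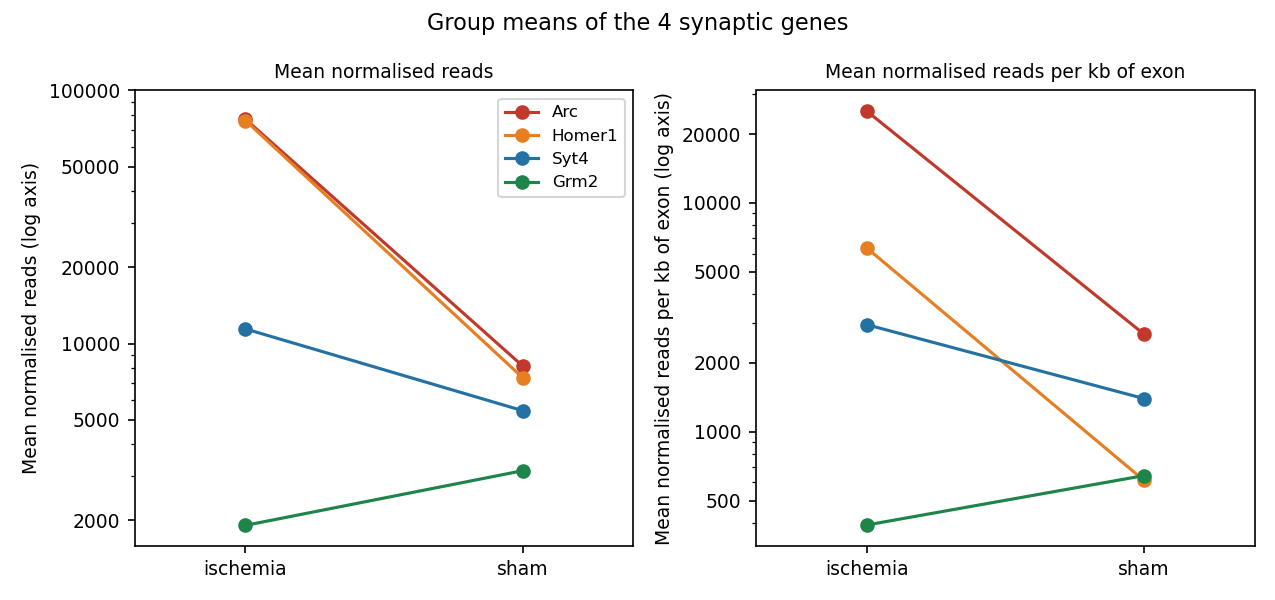
Mean normalised reads (left) and mean normalised reads per kilobase of exon (right) of the 4 genes in ischemia and sham, on log axes; each point is 1 group mean of 3 samples, with no error available. Arc and Homer1 are 9.44-fold and 10.4-fold higher in ischemia, Syt4 2.10-fold higher and Grm2 1.64-fold lower.

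Levels of different genes were compared per kilobase of exon, with exons from GENCODE M21, since a longer transcript collects more reads. On that scale Arc was the most abundant transcript in ischemia of the 564 listed genes with an exon length, at 25199 normalised reads per kilobase, and stood at place 21 in sham, at 2670. Homer1 stood at place 29 in ischemia, at 6352 normalised reads per kilobase, and at place 128 in sham, at 612. Its exons cover 11.976 kilobases over all transcripts but 5.713 in the longest one. With the longest transcript of each gene as its length, Homer1 was at 13316 normalised reads per kilobase and place 13 in ischemia, and at 1284 and place 64 in sham, so its place depends on the length used; Arc was at place 1 in ischemia and 31 in sham. Arc was therefore above Homer1 in both groups on either length. Syt4 had 2935 normalised reads per kilobase in ischemia and 1396 in sham, and Grm2 had 391 in ischemia and 642 in sham. By exon length, the order in ischemia was Arc, Homer1, Syt4, Grm2. In sham it was Arc, Syt4, Grm2, Homer1, with Grm2 and Homer1 at almost the same level per kilobase; by the longest transcript, Homer1 was above Grm2 in sham (1284 against 667 normalised reads per kilobase). Whether neighbours in these orders differ beyond the spread of the samples cannot be said from means. The deposited gene identifiers carry a BALB/cJ strain prefix, so the exons counted may differ in length from those of GENCODE M21.

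Arc, the activity-regulated cytoskeleton-associated gene, lies on the minus strand of chromosome 15 (chr15:74669083-74672570, GRCm38, GENCODE M21), where both of its coding transcripts have 396 codons. In the authors' deposited table its p-value of 1.45e-16 is at place 30 of 637, and among the 415 higher genes its fold is at place 39. If the authors' test statistic is taken as normal, a p-value and a log2 fold change together imply a standard error. For Arc that error is 0.39 on the log2 scale, with an implied 95% interval for the fold of 5.54 to 16.1. Other genes of the table whose reads were most like those of Arc in both groups were Homer1 and Egr1, an activity-induced zinc finger transcription factor, at a distance of 0.16 and 0.60 on the log2 scale over 2 group means and 578 candidate genes. Egr1 averaged 50958 normalised reads in ischemia and 7827 in sham in the authors' deposited table (6.51-fold higher, adjusted p = 1.32e-17).

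Homer1 lies on the plus strand of chromosome 13 (chr13:93299635-93405129, GRCm38, GENCODE M21). Its nearest genes by the same measure were Arc and Egr1, at 0.16 and 0.59. Short Homer1 forms, known as Homer1a, are the ones that neurons induce with activity; they keep the receptor-binding domain, lack the coiled coil that joins Homer proteins to each other and so loosen the scaffold. The annotation has 11 coding Homer1 transcripts, of 180 to 370 codons, while the authors' deposited table has 1 Homer1 row. Short and long forms therefore cannot be told apart in its values.

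With almost the same means and fold as Arc, Homer1 had a far larger p-value, 0.000101 in the authors' deposited table, at place 343 of 637. Its implied standard error was 0.87 on the log2 scale, 2.21 times that of Arc, and its implied 95% interval for the fold was 3.19 to 33.7. Among the 309 listed genes with a sham mean of at least 1000 normalised reads and an implied error, 0 had a larger one than Homer1, and the median was 0.16. For the 6 genes within 0.5 of Homer1 in log2 change and within 4-fold in sham mean, the median was 0.36 and the highest 0.72. Syt4 had an implied error of 0.25 (implied interval for the fold 1.50 to 2.96) and Grm2 one of 0.15 (implied interval for ischemia over sham 0.497 to 0.744). Of the 634 listed genes with an implied error, 16 were above Homer1, 111 above Arc, 215 above Syt4 and 509 above Grm2. These errors can be given only for called genes, among which a large one requires a large fold.

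**Figure D2:**
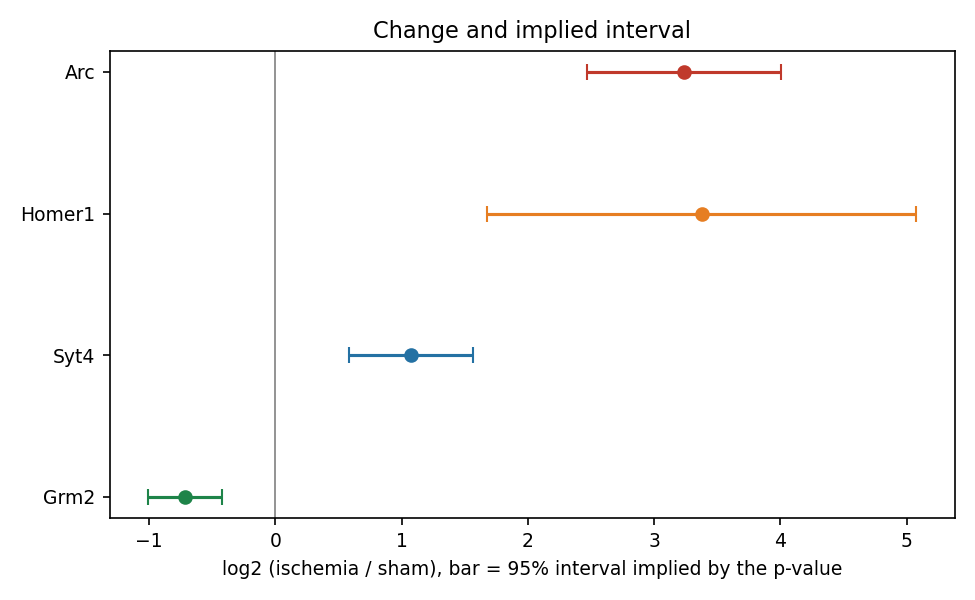
log2 fold change of ischemia over sham for the 4 genes; points are the values of the authors' deposited table and bars the 95% interval implied by each p-value under a normal statistic. Homer1 and Arc have nearly the same change (3.37 and 3.24), but the bar of Homer1 is 2.21 times as wide; Grm2 alone lies below 0.

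**Figure D3:**
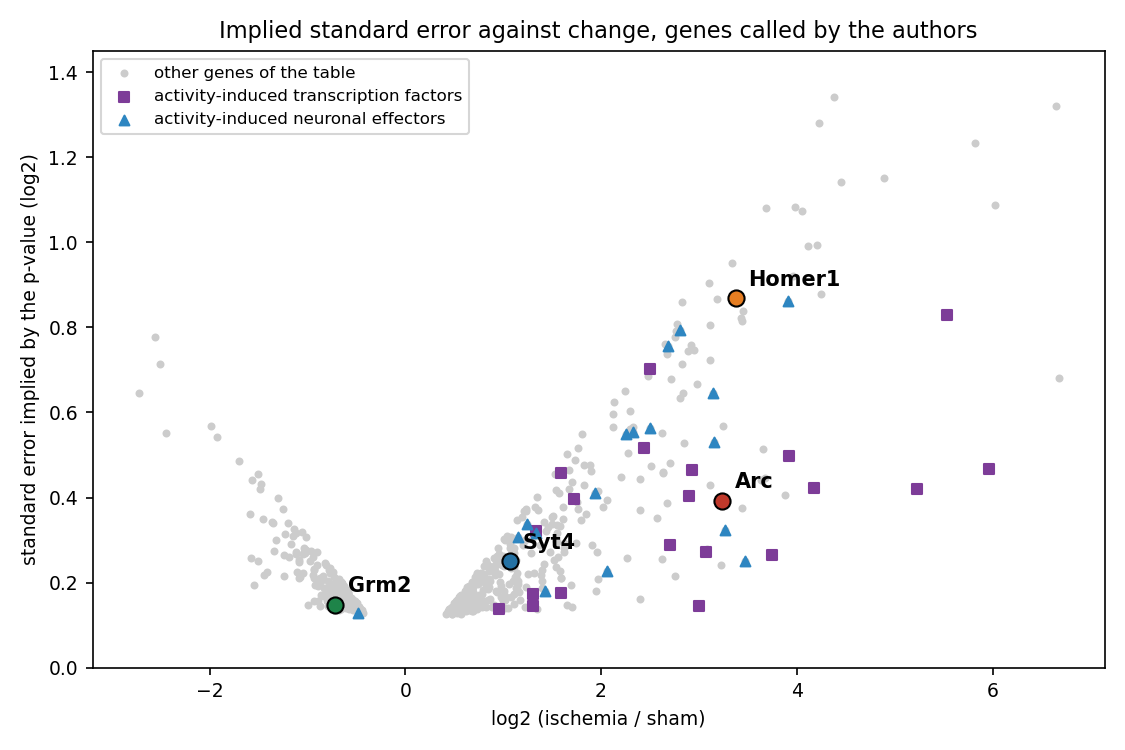
Standard error implied by the p-value (log2, vertical) against log2 fold change of ischemia over sham (horizontal) for listed genes; squares and triangles mark lists of activity-induced genes. The upper edges of the cloud are set by the adjusted p threshold of 0.05, and Homer1 (0.87) sits near that edge while Arc (0.39) lies well below it at almost the same change.

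The sequence in front of a Homer1 start site is shown because the gene's rise can be set beside the letters that activity-dependent factors are known to read. CREB, a transcription factor that neuronal calcium and cyclic AMP signals activate, binds the cyclic AMP response element TGACGTCA and its core TGACG. RefSeq windows from 250 bases before to 50 after a start site (GRCm38.p6) were matched for Homer1 and Grm2, and not for Arc and Syt4. The Homer1 windows, called first and second by position, lie downstream of the gene's GENCODE start at chr13:93299635. The first Homer1 window lies at chr13:93303507-93303806 on the plus strand and the Grm2 window at chr9:106656060-106656359 on the minus strand, and capitals mark TGACG on either strand:
Homer1: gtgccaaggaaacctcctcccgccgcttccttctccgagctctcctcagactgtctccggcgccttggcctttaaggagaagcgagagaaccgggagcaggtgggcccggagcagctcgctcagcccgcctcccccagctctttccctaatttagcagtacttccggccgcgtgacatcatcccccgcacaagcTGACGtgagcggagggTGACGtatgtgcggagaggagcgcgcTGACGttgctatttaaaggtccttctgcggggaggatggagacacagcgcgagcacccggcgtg
Grm2: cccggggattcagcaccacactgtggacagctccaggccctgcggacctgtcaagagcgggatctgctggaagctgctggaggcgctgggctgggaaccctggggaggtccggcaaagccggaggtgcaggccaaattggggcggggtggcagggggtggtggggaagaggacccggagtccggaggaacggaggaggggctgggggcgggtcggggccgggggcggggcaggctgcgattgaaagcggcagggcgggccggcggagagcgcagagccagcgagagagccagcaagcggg

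The first Homer1 window held 3 TGACG cores, all on the gene's strand, with first bases 56, 40 and 14 bases before the start site. At least 3 were found in 1.03% of all 32851 such windows, in 9.64% of the 363 windows of genes called higher and in 0.526% of the 190 windows of genes called lower. Cores were counted on both strands, so a full TGACGTCA adds a core on each strand to these counts. At least 1 full element was in 1.79% of all windows, 8.54% of those of higher genes and 0.526% of those of lower genes. The 363 windows belong to 277 of the 415 higher genes and the 190 windows to 151 of the 222 lower genes, so some genes count more than once. Homer1 itself is among the higher genes. The second Homer1 window, 4277 bases downstream, held 0 cores, as did the Grm2 window; 20.8% of all windows, 48.5% of those of higher genes and 24.7% of those of lower genes held at least 1. Median GC content was 61.7% in windows of higher genes, 61.2% in those of lower genes and 52.7% in all windows. Among activity-induced effector genes with a window, 9 of 14 called ones (64.3%) and 7 of 14 that were not called (50%) held at least 1 core. These are shares of genes, each taken by its window with the most cores, and so are not comparable with the shares of windows. The share over all genes was not computed, so these counts have no background to be read against. The picked gene Homer1 is among the 9.

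In the same windows the full element TGACGTCA (which contains the core), the AP-1 site TGANTCA, the EGR site GCGNGGGCG, the CArG box of serum response factor and the TATA box TATAAA were searched on both strands, and 0 matches were found in the Homer1 and Grm2 windows. At least 1 match was present in 1.79%, 7.81%, 5.55%, 1.63% and 13.6% of all windows, in that order. The E-box CANNTG, which 72.3% of all windows hold, was found in the first Homer1 window (1 match), in the second (5 matches) and not in that of Grm2. These are matches of letters only, and an absent match says nothing about a factor. Whether a factor binds at a match, or has a part in the change of Homer1 or Grm2, was not tested.

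**Figure D4:**
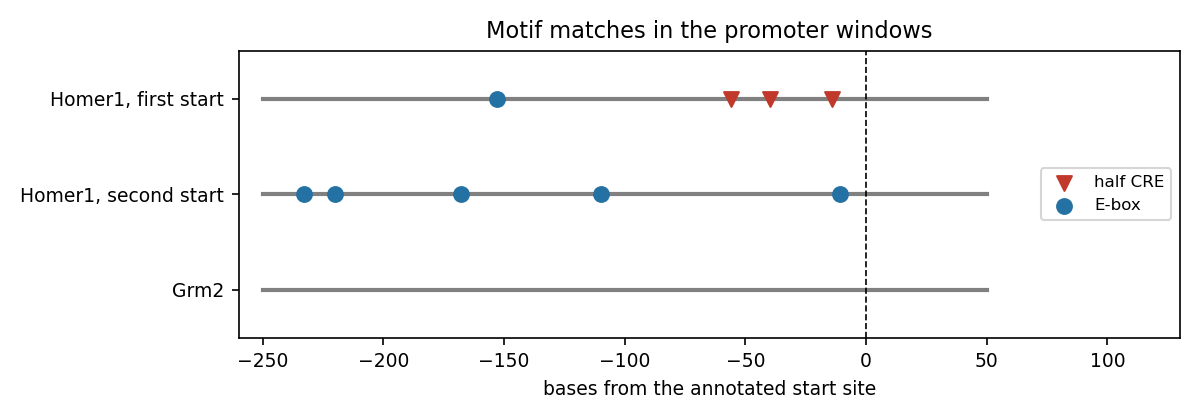
Positions of motif matches in the 2 Homer1 windows and the Grm2 window, in bases from the annotated start site (dashed line); triangles are TGACG cores and circles E-boxes. The 3 cores lie within 56 bases before the start site of the first Homer1 window.

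Lists of synaptic genes were counted with the picked genes set aside. Of 41 genes of the postsynaptic density and spine, 3 were higher, 0 lower and 38 not listed. Without Arc and Homer1, 1 of 39 was called (2.56%), close to the 2.25% of all tested genes. That gene, Rheb, a GTPase that activates the mTOR kinase, averaged 14666 normalised reads in ischemia and 5826 in sham in the authors' deposited table (2.52-fold higher, adjusted p = 0.00275). Of the 3 Homer genes, the 2 besides the picked Homer1 were not listed, a count that 2.25% over all tested genes does not set apart. Of 25 partners of Arc and Homer1 in receptor trafficking, such as dynamins, endophilins, Shank scaffolds, AMPA receptor subunits and group I metabotropic receptors, 0 were called; with 2.25% of all tested genes called, a list of this size could well have none.

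On the presynaptic side, 1 of 55 vesicle and active zone genes was higher, 1 was lower and 53 were not listed. Without Syt4, 1 of 54 was called (1.85%, against 2.25% of all tested genes). The higher gene was Syt4, on the minus strand of chromosome 18 (chr18:31437808-31447406, GRCm38, GENCODE M21), with 1 coding transcript of 425 codons. Of 17 synaptotagmins, the 16 besides the picked Syt4 were not listed, a count that 2.25% over all tested genes does not set apart. Of the exon length of Syt4, 14.5% overlaps exons of Gm26658 on the opposite strand, and whether counting used the strand is not known. In the authors' deposited table the p-value of Syt4, 1.84e-05, is at place 245 of 637, and its fold is at place 209 of the 415 higher genes, close to the middle. Doc2b, a calcium sensor for vesicle fusion with the same kind of paired C2 domains as synaptotagmins, was the lower gene, at 3437 normalised reads in ischemia and 5273 in sham in the authors' deposited table (log2 fold change -0.62, adjusted p = 0.0126). Nearest to Syt4 in both group means were Atf4, a stress response transcription factor, and Sgk1, a serum- and glucocorticoid-induced kinase, each at a distance of 0.22. Atf4 averaged 9808 normalised reads in ischemia and 5409 in sham, and Sgk1 13219 in ischemia and 5684 in sham, in the authors' deposited table.

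Grm2 lies on the minus strand of chromosome 9 (chr9:106643095-106656082, GRCm38, GENCODE M21), and its 3 coding transcripts have 380 to 872 codons. Exons of Gm28111 on the opposite strand overlap 9.60% of its exon length. Beside Grm2, the list of glutamate receptor genes holds 25 ionotropic and metabotropic ones, of which 0 were called, a count that 2.25% over all tested genes does not set apart. In the authors' deposited table the p-value of Grm2, 1.31e-06, is at place 154 of 637, ahead of Syt4 and Homer1, and its fold is at place 97 of the 222 lower genes. Nearest to it in both group means were Fbxo10, an F-box gene, and Ahdc1, at distances of 0.070 and 0.10. Fbxo10 averaged 1921 normalised reads in ischemia and 2995 in sham, and Ahdc1 2026 in ischemia and 3275 in sham, in the authors' deposited table. In whole tissue, fewer cells of a type and less RNA per cell cannot be told apart.

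Markers of cell types were set beside these values, with 1.47% of all tested genes called higher and 0.784% lower. Of 17 dentate granule cell markers, 0 were higher, 2 were lower (11.8%) and 15 not listed: Lct, which encodes lactase, averaged 774 normalised reads in ischemia and 2264 in sham, and the desmosome gene Dsp 1027 in ischemia and 2911 in sham, in the authors' deposited table. Of 11 general neuronal markers, 2 were higher (18.2%), the neurofilament genes Nefm and Nefl, with log2 fold changes of 0.83 and 0.68 in the authors' deposited table. Of 11 CA1 and 11 CA3 pyramidal cell markers, 11 interneuron and 10 astrocyte markers 0 were called; 4 of 10 oligodendrocyte (40%), 2 of 11 microglia (18.2%) and 2 of 10 thalamic markers (20%) were higher. Their part in the values of the 4 genes was not tested, and since markers that were not called have no values, the labelled tissue could not be checked further.

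**Figure D5:**
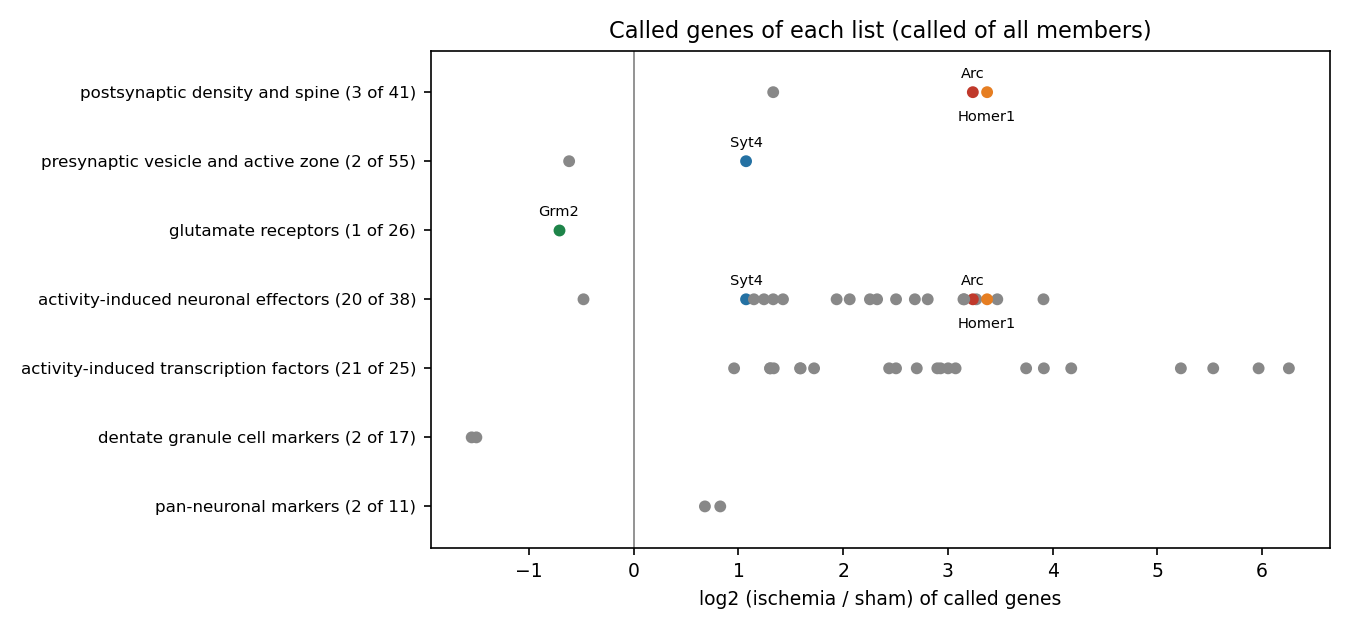
log2 fold change of ischemia over sham of the called genes of each list, 1 point per gene, with the number called of all members beside the list's name; coloured points are Arc, Homer1, Syt4 and Grm2. Postsynaptic, presynaptic and receptor lists have 3, 2 and 1 called genes, and the lists of activity-induced genes 20 and 21. Without the coloured genes, the postsynaptic, presynaptic and receptor lists have 1 of 39, 1 of 54 and 0 of 25 called, beside 2.25% of all tested genes. The lists were chosen with earlier results of these data known.

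Arc, Homer1 and Syt4 also belong to a list of 38 activity-induced neuronal effector genes, of which 19 were higher, 1 was lower and 18 were not listed. Without these 3 genes, 16 of 35 were higher and 1 lower (48.6% called, beside 2.25% of all tested genes). The median log2 fold change of the called effectors was 2.41, below the values of Arc and Homer1 and above that of Syt4. Nptx2, a secreted pentraxin that gathers AMPA receptors, had an implied error close to that of Homer1: it averaged 26499 normalised reads in ischemia and 1759 in sham in the authors' deposited table (log2 fold change 3.91, adjusted p = 0.000781), and the error was 0.86. Rgs2, an inhibitor of G protein signalling, had one closer to that of Arc: it averaged 19055 normalised reads in ischemia and 1973 in sham in the authors' deposited table (log2 fold change 3.27, adjusted p = 1.11e-20), and the error was 0.32. Gadd45g, which encodes a small stress-response protein, was 11.1-fold higher in ischemia in the authors' deposited table, and Sik1, a salt-inducible kinase, 4.18-fold, with implied errors of 0.25 and 0.23. Plk3, a polo-like kinase, was 2.69-fold and the potassium channel gene Kcnj2 8.92-fold higher in ischemia in the authors' deposited table. The neurotrophin gene Bdnf averaged 14342 normalised reads in ischemia and 2231 in sham in the authors' deposited table (6.43-fold higher, adjusted p = 0.0233), with an implied error of 0.76. The lower effector was Nptx1, at 23037 normalised reads in ischemia and 32135 in sham in the authors' deposited table. Nptx2, Bdnf and Nptx1 were chosen for comparison after their values were seen.

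Of 25 activity-induced transcription factors, 21 were higher and 0 lower, with a median log2 fold change of 2.90 among the called ones. Over all tested genes, 1.47% were higher and 0.784% lower. The lists of effectors and factors were chosen with earlier results of these data known, so their counts are a description. Arc and Homer1 lay above that median and Syt4 below it. Implied errors ran from 0.13 to 0.87 over the 20 called effectors and from 0.14 to 0.83 over 20 of the 21 factors, with medians of 0.40 in both, so Homer1 had the largest and Arc one close to the middle.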

How the data were processed

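Hippocampal RNA was extracted with Trizol and sequenced on libraries made by Illumina protocols, per the labels' protocols. Bowtie 0.12.2 and the build mm8 appear in the submitters' processing notes without a role. Gene identifiers of the deposited table carry a BALB/cJ strain prefix, so the annotation counted was not that of mm8. The way reads were counted, with or without strand, then normalised and tested was not stated in the sources used here. Each signal value was taken to be the authors' average of normalised read counts over a group's 3 samples. The column headers say only read count with M2 or S2, and the values have decimals, so this reading is an inference. The deposited log2 fold change is that of the 2 means with no pseudocount added (largest deviation 5.0e-05), and p-values are the authors' own. The planned limma test, leaving out replicates and fits with a replicate block need values per sample, and 0 columns hold any.

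The number of tested genes was found by recomputing adjusted p-values for 20000 to 40000 genes, tested on simulated data. An implied standard error is the absolute log2 fold change divided by the normal deviate of the two-sided p-value, and its interval uses 1.96 errors. The 18 gene lists (295 genes) and the 4 genes were chosen with earlier results of these data known. Genes named were the 4 genes, called members of the lists (up to 6 of a list, smallest p-values first, besides those said to be chosen later, and genes named for a count of promoter cores) and the 2 nearest genes to each of the 4. Exons came from GENCODE M21, for 564 genes (88.5%) by symbol, and promoters from RefSeq. Software was pandas 2.3.3, scipy 1.17.1, matplotlib 3.10.9 and numpy 2.4.6 under Python 3.11.15.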

Additional observations from a re-analysis of the deposited data

How the results depend on the processing

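Settings tried were a pseudocount of 1 or 10, an adjusted p threshold of 0.01, Bonferroni correction over the 28319 tested genes, a minimum of 1 for the size of the log2 fold change and a minimum of 50 normalised reads in the higher group; at the read levels of the 4 genes none of them could turn a direction. Under Bonferroni correction of the authors' p-values Homer1 (log2 fold change 3.37, corrected value 1) and Syt4 (log2 fold change 1.07, corrected value 0.521) no longer passed 0.05, whereas Arc (corrected value 4.11e-12) and Grm2 (corrected value 0.0371) did. The fold threshold removed Grm2 (-0.72). Of the 415 higher and 222 lower genes, 263 and 98 passed an adjusted p of 0.01, 135 and 24 passed Bonferroni correction, and 223 and 48 the fold threshold. The 3 postsynaptic calls became 1 under Bonferroni correction, that of the picked gene Arc. The 2 presynaptic calls became 1, that of the picked gene Syt4, at an adjusted p of 0.01 or with the fold threshold, and 0 under Bonferroni correction. The values are the authors' calls, so these settings could only remove calls. No paired analysis was possible because the table holds group means, and leaving out a replicate was not run for the same reason. Exons of Syt4 overlap those of Gm26658 over 566 bases (14.5% of its exon length) and exons of Grm2 those of Gm28111 over 470 bases (9.60%), on the opposite strand in GENCODE M21; without knowing whether strand was used in counting, the share of their reads from these genes is unknown. For Arc and Homer1 0 such overlaps were found.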

Other observations

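Grm2 was set beside other receptors that couple to inhibitory G proteins, on a list of 35 genes drawn up after the values of some were seen, so its counts are a description. Of these, 3 were lower, 1 was higher and 31 were not listed; without Grm2, 2 of 34 were lower and 1 was higher, where 0.784% and 1.47% of all tested genes were. The serotonin receptor gene Htr1a had in the authors' deposited table means of 1161 normalised reads in ischemia and 2069 in sham (1.78-fold lower, adjusted p = 0.000237). Oprl1, the nociceptin receptor gene, averaged 1375 normalised reads in ischemia and 2193 in sham in the authors' deposited table (1.59-fold lower, adjusted p = 0.00115). For Grm2 the authors' deposited table gives a fall of 1.64-fold. The higher one was S1pr5, a sphingosine 1-phosphate receptor gene of oligodendrocytes, in the authors' deposited table at 875 normalised reads in ischemia and 605 in sham (adjusted p = 0.0409).

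Windows with at least 3 TGACG cores were found in 3 of the 14 called effectors that have a window (Homer1, Pcsk1 and Arl5b) and in 3 of the 18 called transcription factors that have one, the nuclear receptor genes Nr4a1, Nr4a2 and Nr4a3. Among unlisted genes of the same lists, 1 of the 14 effectors with a window (Plk2) and the 1 factor with a window (Cebpb) had at least 3. Of 37 unlisted presynaptic genes with a window, 1 had at least 3 (Unc13a). At least 3 were in 1.03% of all windows and in 9.64% of those of higher genes. Those are shares of windows and the counts are of genes, so they are not directly comparable. Homer1 is 1 of the picked genes. In these counts too, a full TGACGTCA adds a core on each strand. These genes were named after their windows were counted.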
